A study of Rattus norvegicus with 12 samples.

Results

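The regional expression of the uncongested kidney was compared between cortex and outer medulla. Of the 12 arrays of the series, the 6 control arrays were used, which were chosen by their labels alone: 3 of cortex and 3 of outer medulla. The rats were male, of the Sprague-Dawley strain and aged between 7 and 9 weeks, and the control was their right kidney. In these rats the inferior vena cava (IVC) had been tied off between the renal veins 3 days earlier, so that the left kidney was congestive and the right one served as control. The control kidneys therefore came from operated animals, not from sham or untreated ones. The design text gives 3 rats, and the labels number the arrays 1 to 3 in each region without saying whether a number is 1 kidney in both. The methods describe the inner tissue as medulla, whereas the labels name it outer medulla.

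A nephron begins at the glomerulus in the cortex and runs as a convoluted proximal tubule. Its straight proximal part, thin limbs and thick ascending limb pass through the outer medulla, and the distal convoluted and connecting tubules lie again in the cortex. Collecting ducts run through both regions. Each segment has its own transporters, so that tissue cut from 1 region carries the RNA of the segments that lie there. In whole tissue, fewer cells of a type and less RNA per cell cannot be told apart, and this applies to every difference given here.

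The array was the GeneChip Rat Gene 2.0 ST, and values are the deposited log2 values per gene. The control arrays had medians between 6.02 and 6.06. Pearson's r across all rows was 0.989 within cortex, 0.989 to 0.991 within outer medulla and 0.973 to 0.978 between the regions, as a description over probes of the same arrays. Differences are cortex minus outer medulla in log2 units, so 1 unit is 2-fold, with a standard error (SE) from limma. Benjamini-Hochberg adjustment covered all 18166 genes tested, and a gene was called when its adjusted p was under 0.05. The study describes its arrays as individuals, 3 for each region, and the p-values measure the spread between them. An exact permutation test of 3 against 3 arrays cannot give a p under 0.1. As a check of the labels, the glomerular gene Nphs1 and the early proximal gene Slc5a2 were higher on each cortex array, and the thick limb gene Slc12a1 on each outer medulla array. Values are compared within a gene and not between genes, whose probes differ.

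Many genes differed between the regions. There were 1792 genes higher in cortex (9.86%) and 1993 higher in outer medulla (11%), together 3785 genes or 20.8% of those tested. The counts of called genes in each list below stand against these shares. In all 3785 the cortex and outer medulla values did not overlap, which held for 38.2% of all genes. The median size of the difference was 0.55 for called genes and 0.15 for all genes, and most called differences were small. At least 2-fold differences were found for 369 genes higher in cortex and 425 higher in outer medulla. At least 8-fold differences were found for 22 and 23 genes. With each array centred on its median, the split was 2320 against 1726, since this moved the median difference of all genes from 0.012 to 0.066.

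**Figure D1:**
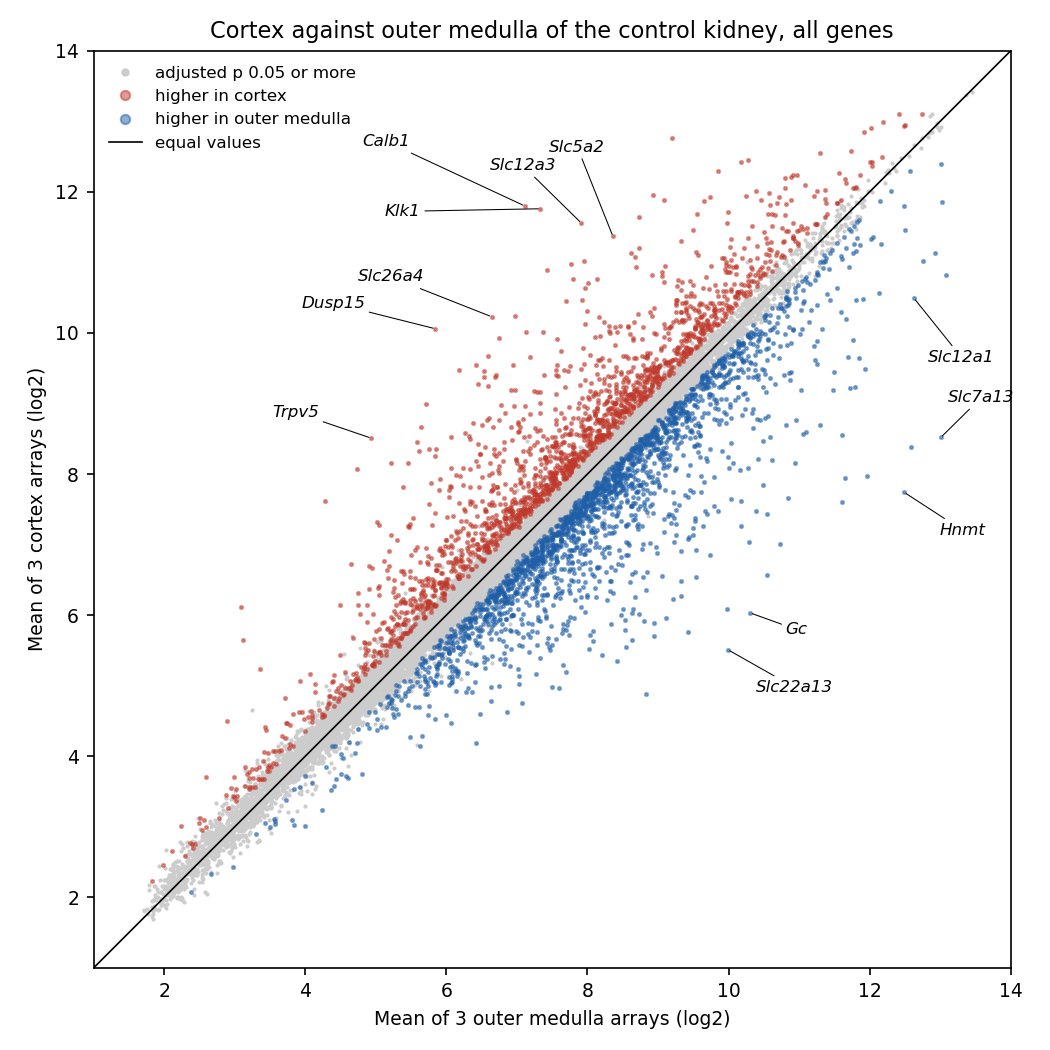
Mean of the 3 cortex arrays (vertical, log2) against the mean of the 3 outer medulla arrays (horizontal, log2) for 18166 genes of the control kidney, with genes called higher in cortex in red (1792), genes called higher in outer medulla in blue (1993) and other genes in grey. Genes on the diagonal had equal means, and Calb1 and Hnmt lie among the points farthest from it on either side.

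The 15 genes with the largest differences in favour of cortex included calcium and salt handling genes of the distal nephron, kallikrein genes, proximal tubule genes and an intercalated cell gene. Calb1, which encodes the calcium-binding protein calbindin of the distal nephron, read 11.83, 11.88 and 11.67 in cortex against 6.55, 6.77 and 8.02 in outer medulla. The cortex values lay close together, while outer medulla replicate 3 stood above the other 2. The difference was 4.68 (SE 0.34, adjusted p = 7.7e-05), which is 25.7-fold. Klk1, which encodes tissue kallikrein, a secreted protease of the connecting tubule, read 11.76, 11.81 and 11.71 against 6.50, 7.71 and 7.79, with replicate 1 lowest in outer medulla. It was 21.6-fold higher in cortex (4.43, SE 0.31, adjusted p = 6.3e-05). The kallikrein family members Klk1b3, Klk1c9 and Klk1c10 differed by 3.57, 3.35 and 3.34, but these genes are near copies of each other and their probes may share RNA, so the members are uncertain as separate genes. For Klk1c10 the mean of its 2 rows differed by 2.09, and it did not pass the methods' t-test after adjustment (0.052).

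Slc26a4, which encodes pendrin, the chloride and bicarbonate exchanger of type B intercalated cells, read 10.15, 10.04 and 10.50 in cortex against 6.99, 6.37 and 6.56 in outer medulla. It was 12.1-fold higher in cortex (SE 0.18, adjusted p = 1.3e-05). Trpv5, the apical calcium channel of the distal nephron, read 8.42, 8.47 and 8.62 against 4.78, 5.20 and 4.82. Its values were tight in both regions, and the difference was 3.57 (SE 0.12, adjusted p = 3.9e-06). Slc15a1, a peptide transporter of the proximal brush border, differed by 3.31, and Car14, a membrane-bound carbonic anhydrase, by 3.18. The aldo-keto reductase genes Akr1b10 and Akr1c1 differed by 3.48 and 3.27, F13b, which encodes a subunit of coagulation factor XIII, by 3.28, and Fam151a by 3.21. Dusp15, which encodes a dual-specificity phosphatase, read 10.01, 10.09 and 10.09 in cortex against 6.09, 6.40 and 5.04 in outer medulla, a difference of 4.22 (SE 0.31, adjusted p = 7.5e-05).

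The 15 genes with the largest differences in favour of outer medulla included carriers of organic anions and amino acids beside the enzyme gene Hnmt, genes of secreted proteins and the transcription factor gene Mybl1. Hnmt, which encodes histamine N-methyltransferase, the enzyme that inactivates histamine inside cells, read 8.01, 9.40 and 5.80 in cortex against 12.56, 12.40 and 12.50 in outer medulla. Outer medulla was uniform and cortex was not, and the groups did not overlap. The difference was 26.9-fold (-4.75, SE 0.77, adjusted p = 0.0037). Slc7a13, an amino acid carrier of the straight proximal tubule in rodents, read 8.65, 10.46 and 6.44 against 13.01, 12.99 and 13.04, with the same order of the cortex arrays (-4.49, SE 0.85, adjusted p = 0.00789). Slc22a13, an organic anion transporter, read 5.77, 5.74 and 5.03 in cortex against 9.82, 9.99 and 10.16 in outer medulla (-4.48, SE 0.20, adjusted p = 8.4e-06). Here cortex was low on every array, and the difference was 22.3-fold.

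Others of the 15 largest were the organic anion carriers Slco1a6 (-4.19), Slco4c1 (-3.88) and Slc22a24 (-3.72), the amino acid carrier Slc7a12 (-3.99) and Slc23a3 (-3.26). Gc, which encodes the vitamin D-binding protein, differed by -4.28 (SE 0.46, adjusted p = 0.0005), and Tff3, a secreted trefoil peptide of epithelia, by -4.01. Cryab, a small heat shock protein, differed by -3.70, Fst, which encodes the activin antagonist follistatin, by -3.24, and the transcription factor gene Mybl1 by -3.66. Cacng5, which encodes a calcium channel gamma subunit, and Ly6al differed by -3.97 and -3.95. All of these calls were kept in 6 of 6 fits that left out 1 array. Slc7a13 did not pass with a trended, robust fit (adjusted p = 0.061), and Hnmt and Slc7a13 did not pass the methods' t-test after adjustment (0.061 and 0.086).

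**Figure D2:**
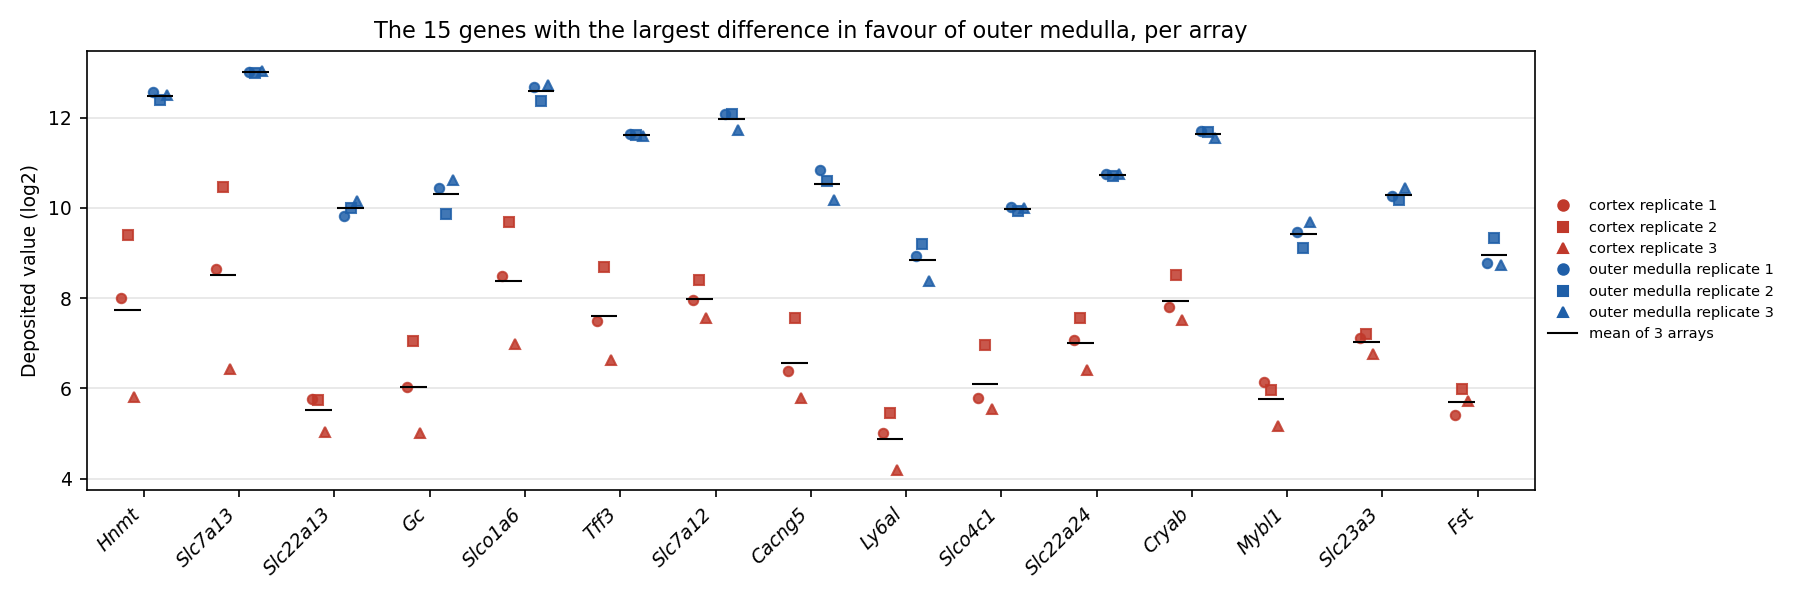
Deposited log2 value (vertical) on each of the 6 control arrays for the 15 genes with the largest difference in favour of outer medulla (horizontal), with cortex in red, outer medulla in blue, a symbol for each replicate and a bar at each mean of 3 arrays. The outer medulla values lie close together for most of these genes, whereas the cortex values spread, with replicate 2 highest and replicate 3 lowest for genes such as Hnmt (9.40 and 5.80) and Slc7a13 (10.46 and 6.44).

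The cortex arrays differed from each other in these genes. Of the 105 genes at least 4-fold higher in outer medulla, 54 (51.4%) had the order replicate 2, replicate 1, replicate 3 in cortex from high to low. Among all 18166 genes 2347 (12.9%) had this order, and among the 85 genes at least 4-fold higher in cortex 11 (12.9%). The median SD of the 105 genes was 0.24 in cortex and 0.18 in outer medulla. That of the 85 cortex genes was 0.12 and 0.14. In 9 of the 105 genes the cortex arrays spanned at least 4-fold, and in 0 of them did the outer medulla arrays. These are counts over genes of the same arrays, and how the tissue of each array was divided was not tested. Some of the outer medulla values, such as those of Slc7a13 (12.99 to 13.04), lay near the top of the range of values (13.5). Whether spread and differences are compressed there was not tested. The fold change of a gene such as Hnmt (9.40 or 5.80 in cortex) rests on which cortex arrays are averaged. In others of the 105, such as Slc22a13 (5.77, 5.74 and 5.03), the cortex values lay closer together.

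The 4 genes with the largest difference among those that have a promoter entry in the RefSeq table (build GRCr8) were Hnmt, Slc22a13, Klk1 and Gc. Their promoters, 250 bases before to 50 after the start, are shown because these genes carry the regional contrast and because sites of liver and kidney regulators were looked for in them. Hnmt lies at chr3:27010242-27010541 (minus strand), Slc22a13 at chr8:127811701-127812000 (minus strand), Klk1 at chr1:103778902-103779201 (plus strand) and Gc at chr14:18916005-18916304 (plus strand). Capitals mark GTTAAT, the core of the site of HNF1 factors, which regulate proximal tubule and liver genes.
Hnmt promoter: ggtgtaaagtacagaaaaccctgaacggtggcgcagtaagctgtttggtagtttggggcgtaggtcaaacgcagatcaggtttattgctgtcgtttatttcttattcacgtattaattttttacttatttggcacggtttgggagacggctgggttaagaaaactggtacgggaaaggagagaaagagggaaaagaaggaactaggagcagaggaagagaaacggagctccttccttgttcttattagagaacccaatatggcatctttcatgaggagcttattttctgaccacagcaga
Slc22a13 promoter: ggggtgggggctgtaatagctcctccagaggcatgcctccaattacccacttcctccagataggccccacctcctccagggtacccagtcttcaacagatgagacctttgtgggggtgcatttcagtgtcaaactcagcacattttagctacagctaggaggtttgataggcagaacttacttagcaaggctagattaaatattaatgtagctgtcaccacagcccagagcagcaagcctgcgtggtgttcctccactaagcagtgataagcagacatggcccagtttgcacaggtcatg
Klk1 promoter: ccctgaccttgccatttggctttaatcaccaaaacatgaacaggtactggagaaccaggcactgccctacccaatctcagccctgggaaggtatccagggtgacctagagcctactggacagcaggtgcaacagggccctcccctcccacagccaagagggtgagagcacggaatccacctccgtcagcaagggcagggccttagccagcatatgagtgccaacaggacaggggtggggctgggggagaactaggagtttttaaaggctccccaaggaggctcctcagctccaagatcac
Gc promoter: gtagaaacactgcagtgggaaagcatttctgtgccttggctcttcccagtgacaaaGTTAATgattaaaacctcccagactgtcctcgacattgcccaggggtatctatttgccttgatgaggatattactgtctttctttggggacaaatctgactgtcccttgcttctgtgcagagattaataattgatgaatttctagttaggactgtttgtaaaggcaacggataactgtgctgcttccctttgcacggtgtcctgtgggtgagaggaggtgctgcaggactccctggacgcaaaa
Both strands were searched for GTTAAT and for TGACCTTTG, a form of the site of HNF4 factors, and the motifs share no bases with each other. Of these 4, only the Gc promoter held GTTAAT, and none held TGACCTTTG. GTTAAT was in 7.45% of all 33469 promoters, in 5 of 86 promoters of genes at least 4-fold higher in cortex (5.81%) and in 10 of 87 promoters of those at least 4-fold higher in outer medulla (11.49%). TGACCTTTG was in 0.42% of all promoters, in 2 of the 86 and in 0 of the 87. A match describes the letters and is not a site in use.

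Glomerular genes were higher in cortex. Of 20 measured podocyte genes 10 were higher in cortex, 1 was higher in outer medulla and 9 were not called, with a median of 0.44 against 0.01 over all genes. Nphs1, which encodes nephrin of the slit diaphragm, read 8.41, 8.24 and 8.19 in cortex against 6.60, 6.39 and 6.43 in outer medulla. The regions stood clearly apart (1.81, SE 0.09, adjusted p = 1.6e-05). The podocyte phosphatase gene Ptpro differed by 2.0, Clic3 by 2.19, Sema3g by 1.66, the transcription factor gene Wt1 by 1.25 and the surface sialomucin gene Podxl by 0.82. Actn4 (0.13, adjusted p = 0.322) and Tcf21 (0.13, adjusted p = 0.651) were among the 9 podocyte genes not called. Of 8 genes of glomerular endothelium 3 were higher in cortex, led by Nostrin (1.61, adjusted p = 3.3e-05). Of 15 juxtaglomerular and mesangial genes 2 were higher in cortex and 2 in outer medulla, beside 20.8% of all genes called in either direction. Those higher in cortex were Agtr1a (0.48), the angiotensin receptor, and Gja5 (0.45), a connexin gene. Those higher in outer medulla were Rgs5 (-0.78) and Serpine2 (-0.65), of which Serpine2 was called in only 2 of 6 fits that left out 1 array.

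**Figure D3:**
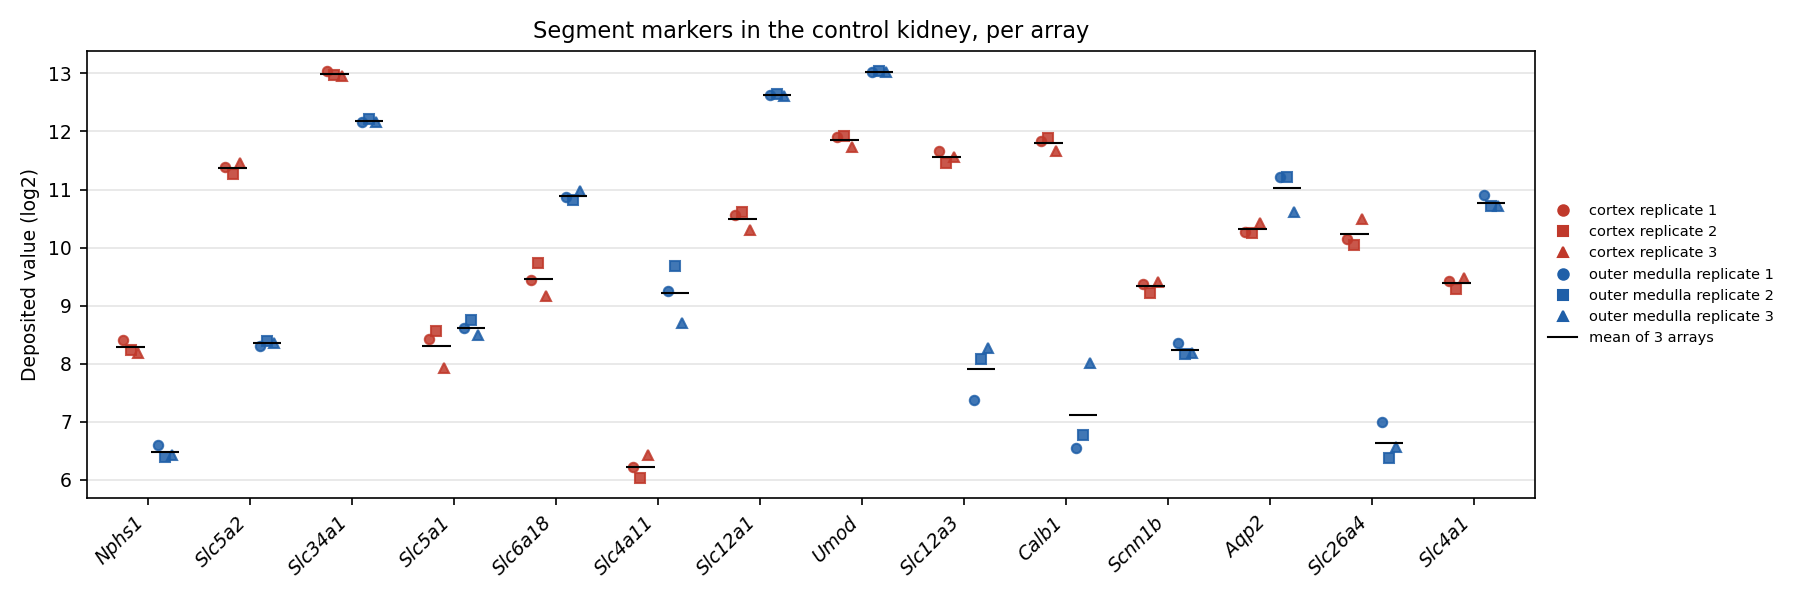
Deposited log2 value (vertical) on each of the 6 control arrays for 14 segment markers (horizontal, from glomerulus to collecting duct), with cortex in red, outer medulla in blue, a symbol for each replicate and a bar at each mean of 3 arrays. Nphs1, Slc5a2, Slc12a3, Calb1 and Slc26a4 are high in cortex, Slc4a11, Slc12a1 and Slc4a1 are high in outer medulla, and the values of Slc5a1 overlap between the regions.

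The convoluted proximal tubule was the segment list with most members on the cortex side. Of 21 genes 18 were higher in cortex, 1 was higher in outer medulla and 2 were not called, with a median of 1.68. Slc5a2, the sodium and glucose cotransporter of the early proximal tubule, read 11.38, 11.27 and 11.45 in cortex against 8.30, 8.40 and 8.36 in outer medulla. The values were tight and far apart, with an 8.05-fold difference (SE 0.08, adjusted p = 2.2e-06). The phosphate cotransporter genes differed in size, and the values of Slc34a1 lay near the top of the range (13.5). Slc34a3 was at 11.00, 10.99 and 11.08 against 7.92, 8.04 and 7.91 (3.07), whereas Slc34a1 was at 13.04, 12.97 and 12.96 against 12.17, 12.22 and 12.17 (0.80, adjusted p = 0.00014). The lactate carrier gene Slc5a12 differed by 3.03, the neutral amino acid carrier gene Slc6a19 by 2.96 and the organic anion transporter gene Slc22a6 by 1.33. The member on the other side was Aqp1, the water channel of the proximal tubule and the descending thin limb (-0.63, adjusted p = 0.00098). Slc9a3, the apical sodium and proton exchanger of the proximal tubule and thick limb, read 10.43, 10.21 and 10.31 against 10.51, 10.59 and 10.52 and was not called (adjusted p = 0.0977).

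Genes of the straight proximal tubule went in both directions. Of 16 genes 8 were higher in outer medulla, 4 were higher in cortex and 4 were not called, with a median of -0.46. Besides Slc7a13, the sugar cotransporter gene Slc5a10 differed by -2.02, the organic anion transporter gene Slc22a7 by -1.81, Agt, which encodes angiotensinogen, by -1.70 and the amino acid carrier gene Slc6a18 by -1.44. Slc6a18 read 9.45, 9.74 and 9.17 in cortex against 10.88, 10.82 and 10.97 in outer medulla, again with cortex replicate 2 highest and replicate 3 lowest. Slc5a1, the high-affinity glucose cotransporter that follows Slc5a2 along the tubule, read 8.43, 8.57 and 7.92 against 8.61, 8.75 and 8.49. These values overlapped, and the difference of -0.31 did not pass (SE 0.17, adjusted p = 0.242). Among the 4 members higher in cortex was Slc7a9, which encodes the light chain of the cystine transporter (1.63, adjusted p = 1.6e-05). Slc1a1, a glutamate carrier, was not called (0.26, adjusted p = 0.0665).

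The loop of Henle was on the outer medulla side. Of 9 thin limb genes 7 were higher in outer medulla and 0 in cortex, with a median of -1.20. Slc4a11, a membrane transporter of the thin descending limb, read 6.23, 6.03 and 6.43 in cortex against 9.25, 9.69 and 8.71 in outer medulla, a 7.91-fold difference (SE 0.23, adjusted p = 0.0001). The urea transporter gene Slc14a2 differed by -1.93 and the Notch ligand gene Jag1 by -1.50. Of 28 genes of the thick ascending limb 16 were higher in outer medulla, 2 in cortex and 10 were not called, with a median of -0.76. Slc12a1, the sodium, potassium and chloride cotransporter on which this segment depends, read 10.56, 10.61 and 10.31 in cortex against 12.62, 12.65 and 12.61 in outer medulla. It was 4.38-fold higher in outer medulla (SE 0.09, adjusted p = 7.9e-06). The largest differences of this list were those of Ppp1r1b (-2.60), a phosphatase inhibitor, Tmem207 (-2.48) and Cldn19 (-2.37), a claudin that with Cldn16 (-1.63) carries calcium and magnesium between the cells.

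Umod, which encodes uromodulin, the most abundant protein of normal urine, read 11.91, 11.93 and 11.74 in cortex against 13.02, 13.04 and 13.02 in outer medulla. It differed by -1.17 (SE 0.08, adjusted p = 4.9e-05). The thick limb is also present in cortex, and Egf, a growth factor precursor of this and the next segment, was not called (-0.34, adjusted p = 0.101). Kcnj1, the potassium channel that recycles potassium into the lumen, differed by -1.18. Of 7 genes of the macula densa, the plaque at the end of the cortical thick limb, 5 were higher in cortex and 0 in outer medulla. Ptgs2, which encodes the inducible cyclooxygenase, read 8.69, 8.44 and 8.81 against 6.80, 7.55 and 7.41 (1.39, SE 0.20, adjusted p = 0.00195), and the protease gene Pappa2 differed by 1.35. Nos1, the neuronal nitric oxide synthase that also marks these cells, read 6.05 to 6.28 on all arrays and was not called (0.13, adjusted p = 0.283).

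**Figure D4:**
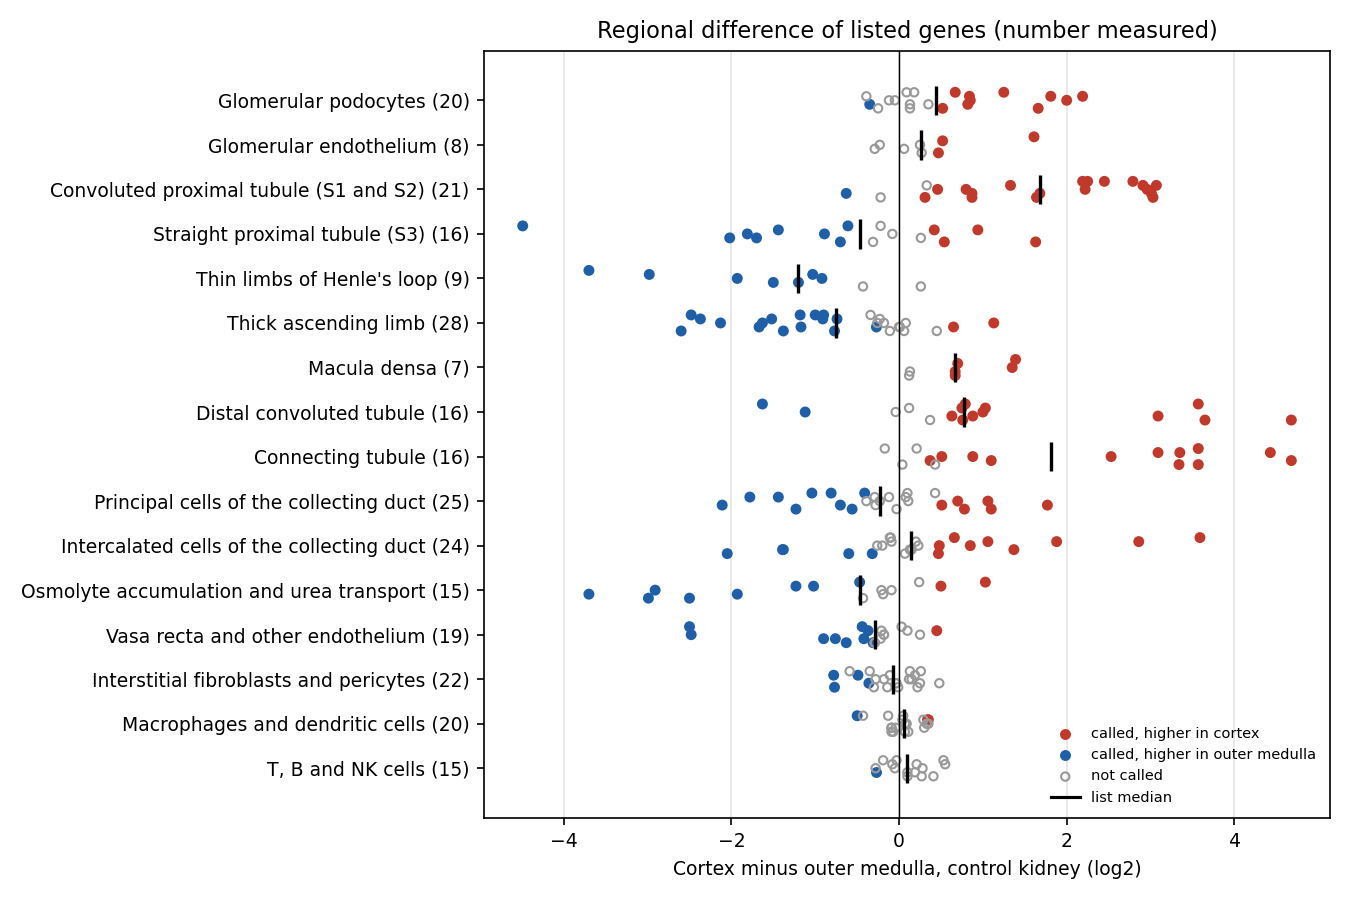
Cortex minus outer medulla in the control kidney (horizontal, log2) for each measured gene of 16 lists of segments and cell types (vertical, number measured in brackets), with called genes filled, other genes open and a bar at the list median. The medians run from 1.81 for the connecting tubule to -1.20 for the thin limbs, and the lists of macrophages and lymphocytes centre near 0.

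The distal convoluted and connecting tubules were on the cortex side. Slc12a3, the thiazide-sensitive sodium and chloride cotransporter, read 11.67, 11.46 and 11.56 in cortex against 7.38, 8.09 and 8.27 in outer medulla. It was 12.5-fold higher in cortex (SE 0.21, adjusted p = 2.8e-05), opposite in direction to its thick limb relative Slc12a1. Of 16 distal convoluted genes 11 were higher in cortex and 2 in outer medulla, with a median of 0.77. Trpm6, the magnesium channel of this segment, differed by 1.03, and Pvalb, which encodes parvalbumin, was dim and not called (0.12, adjusted p = 0.451). The 2 members on the other side were Erbb4 and Tfap2b, which are also expressed in other nephron segments. Of 16 connecting tubule genes 12 were higher in cortex and 0 in outer medulla, with a median of 1.81, but 6 of the 16 are kallikrein genes whose probes may share RNA. Slc8a1, the basolateral sodium and calcium exchanger, read 9.71, 9.90 and 9.44 against 6.58, 6.75 and 6.43 (3.09, SE 0.13, adjusted p = 7.7e-06). The RNAs of Trpv5 for entry, Calb1 for buffering and Slc8a1 for exit of calcium were thus all higher in cortex. The calcium pump gene Atp2b1 was not called (0.04, adjusted p = 0.77).

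Collecting duct genes were split between the regions. Of 25 principal cell genes 6 were higher in cortex and 9 in outer medulla. Of the subunits of the aldosterone-regulated sodium channel, Scnn1b and Scnn1g were higher in cortex and Scnn1a was not called (0.43, adjusted p = 0.0546). Scnn1b read 9.38, 9.22 and 9.41 in cortex against 8.36, 8.16 and 8.18 in outer medulla (1.10, SE 0.09, adjusted p = 0.00012). Hsd11b2, the enzyme that keeps cortisol and corticosterone from the mineralocorticoid receptor, differed by 0.78 and the potassium channel subunit gene Kcne1 by 1.77. Those higher in outer medulla included genes of water transport. Aqp4, the basolateral water channel, read 7.58, 7.40 and 7.28 against 9.51, 9.10 and 9.00 (-1.78, SE 0.15, adjusted p = 0.00012). Aqp2, the vasopressin-regulated water channel, read 10.27, 10.26 and 10.42 against 11.22, 11.22 and 10.62 (-0.70, adjusted p = 0.0199) and was called in only 2 of 6 fits that left out 1 array. The vasopressin receptor gene Avpr2 differed by -0.81, the sodium pump regulator gene Fxyd4 by -2.11 and the keratin gene Krt19 by -1.44. Aqp3 was not called (-0.39, adjusted p = 0.181).

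Among 24 intercalated cell genes 9 were higher in cortex and 5 in outer medulla. Higher in cortex were Slc26a4, known from type B cells, which secrete bicarbonate, the carbonic anhydrase gene Car15 (1.88), the receptor gene Insrr (2.86) and the anion exchanger gene Slc4a9 (1.06, adjusted p = 0.00072). Higher in outer medulla were Slc4a1, Slc26a7 and Aqp6. Slc4a1, the basolateral chloride and bicarbonate exchanger of type A cells, which secrete acid, read 9.43, 9.29 and 9.47 in cortex against 10.90, 10.72 and 10.71 in outer medulla (-1.38, SE 0.09, adjusted p = 4e-05). Slc26a7, another anion exchanger, differed by -2.05 and Aqp6, a vesicular water channel, by -1.39. The proton pump subunit gene Atp6v1b1 differed by 0.66, while Foxi1, the transcription factor of intercalated cells, read 8.48, 8.51 and 8.76 against 8.64, 8.39 and 8.27 and was not called (0.15, adjusted p = 0.449).

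Osmolyte, claudin and sodium pump genes that were called were more often higher in outer medulla. Of 15 osmolyte and urea genes 8 were higher in outer medulla and 2 in cortex, with a median of -0.47. Slc5a3, which imports the osmolyte myo-inositol, read 7.27, 7.32 and 7.21 in cortex against 10.11, 10.40 and 10.01 in outer medulla (-2.91, SE 0.11, adjusted p = 4.6e-06). Hspa2, a heat shock protein, differed by -2.99. Slc14a1, the urea transporter of descending vasa recta and red cells, read 5.27, 5.64 and 5.67 against 8.0, 8.85 and 7.22, with outer medulla replicate 2 highest (-2.50, SE 0.36, adjusted p = 0.00222). Akr1b1, the aldose reductase that makes sorbitol, was not called (-0.43, adjusted p = 0.0505). Of 19 claudin genes 10 were higher in outer medulla and 2 in cortex, with a median of -0.49. Cldn2, the cation pore of the proximal tubule, read 9.03, 9.03 and 9.05 against 8.97, 9.10 and 9.04 and was not called. Of 12 measured sodium pump genes 5 were higher in outer medulla and 0 in cortex, and the beta subunit Atp1b1 was among those not called (-0.11, adjusted p = 0.38).

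Of 33 potassium channel genes 5 were higher in cortex and 3 in outer medulla, a share close to the 20.8% of all genes. Kcnj15, an inward rectifier, read 11.72, 11.73 and 11.73 in cortex against 9.83, 10.10 and 10.03 in outer medulla (1.74, SE 0.09, adjusted p = 1.3e-05). Kcnt1, a sodium-activated channel, differed by -2.37 and the leak channel gene Kcnk1 by -2.22. The basolateral channel gene Kcnj10 was not called (0.06, adjusted p = 0.812).

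Of 7 measured genes of gluconeogenesis and fructose use 5 were higher in cortex and 0 in outer medulla, with a median of 1.0. Pck1, the cytosolic phosphoenolpyruvate carboxykinase, read 12.15, 11.79 and 12.09 in cortex against 10.47, 10.33 and 10.38 in outer medulla. It was 3.07-fold higher in cortex (SE 0.11, adjusted p = 5e-05). Fbp1, the fructose bisphosphatase of the same path, differed by 1.19 and Slc37a4, the glucose-phosphate carrier, by 1.28. Of 15 glycolysis genes 5 were higher in outer medulla and 2 in cortex. The platelet type phosphofructokinase gene Pfkp differed by -1.68, the glucose carrier gene Slc2a1 by -1.57 and Pfkfb3, a regulator of phosphofructokinase, by -0.89. Gpi, the phosphoglucose isomerase, was at 11.77 to 11.89 on all arrays. Slc16a1, a carrier of lactate and ketone bodies, went the other way and read 10.58, 10.24 and 8.91 in cortex against 7.71, 7.86 and 7.13 (2.34, SE 0.41, adjusted p = 0.00545), with replicate 3 lowest in both regions.

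Of 44 respiratory chain genes 37 were not called, 6 were higher in cortex and 1 in outer medulla, with a median of 0.06. The share called was below the 20.8% of all genes in the main fit, but it depended on the fit. The counts were 11 and 1 with median centring, 11 and 2 with a trended, robust fit and 10 and 1 with the methods' t-test after adjustment. Without cortex replicate 2 they were 3 and 0. Ndufa1, a complex I subunit, had the largest difference of the list (0.55, adjusted p = 0.00242), and the ATP synthase gene Atp5f1b was at 12.23 to 12.34 on all arrays. Of 15 citric acid cycle genes 5 were higher in cortex and 1 in outer medulla, among them the succinate-CoA ligase genes Suclg1 (0.59), Suclg2 (0.43) and Sucla2 (0.32). Of 29 genes of fatty acid oxidation and peroxisomes 11 were higher in cortex and 5 in outer medulla. The acyl-CoA thioesterase gene Acot12 differed by 2.21 and the thiolase gene Acaa2 by 1.10, whereas Acox2, the oxidase of branched chains, differed by -1.66. Catalase (Cat) was at 12.75 to 12.85 on all arrays and was not called (adjusted p = 0.728).

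Of 34 genes of amino acid metabolism 14 were higher in cortex and 8 in outer medulla. Gldc, the glycine decarboxylase, read 9.58, 9.15 and 9.11 in cortex against 6.73, 6.56 and 6.08 in outer medulla (2.82, SE 0.19, adjusted p = 5.1e-05), and the hydroxyproline dehydrogenase gene Prodh2 differed by 2.70. Cdo1, the cysteine dioxygenase that begins taurine synthesis, read 7.46, 8.14 and 7.38 against 10.87, 10.68 and 10.95 (-3.18, SE 0.19, adjusted p = 3.5e-05). Odc1, the first enzyme of polyamine synthesis, was 5.43-fold higher in outer medulla (-2.44). Of 23 genes of ammonia and bicarbonate transport 8 were higher in cortex and 5 in outer medulla. Slc4a7, a sodium and bicarbonate cotransporter, read 6.63, 6.39 and 6.59 in cortex against 9.54, 9.87 and 9.22 in outer medulla (-3.01, SE 0.16, adjusted p = 1.8e-05). Slc38a3, which takes up glutamine for ammonia production, read 8.63, 9.38 and 8.07 against 11.42, 11.18 and 11.29 (-2.61, adjusted p = 0.00057), with the cortex order of Hnmt.

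Drug and organic ion handling was divided by family member. Of 29 organic ion transporter genes 10 were higher in cortex, 11 were higher in outer medulla and 8 were not called. Slc15a1 and Slc22a6 stood on the cortex side, and Slc22a13, Slco1a6, Slco4c1 and Slc22a24 on the outer medulla side. Of 34 cytochrome P450 genes 6 were higher in cortex and 8 in outer medulla. Cyp24a1, which inactivates vitamin D hormone, read 8.70, 8.65 and 7.93 in cortex against 6.67, 6.42 and 6.27 in outer medulla (1.97, SE 0.21, adjusted p = 0.00048). Cyp2d5 read 6.34, 7.25 and 5.21 against 9.63, 9.41 and 8.95 (-3.07, SE 0.46, adjusted p = 0.00256), and Cyp2c11 and Cyp2j4 differed by -2.32 and -2.33. P450 genes of 1 subfamily are close copies and uncertain as single genes. Of 31 conjugation and glutathione genes 8 were higher in cortex and 9 in outer medulla. Gclc, the catalytic subunit of the rate-limiting enzyme of glutathione synthesis, read 10.84, 11.69 and 9.95 in cortex against 13.10, 13.02 and 13.14 in outer medulla (-2.26, SE 0.37, adjusted p = 0.00411).

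Genes of hormone systems were divided as well. Of 10 measured renin-angiotensin genes 4 were higher in outer medulla and 2 in cortex. Ace, the angiotensin-converting enzyme, read 6.98, 7.00 and 6.78 in cortex against 9.32, 9.27 and 10.05 in outer medulla (-2.63, SE 0.20, adjusted p = 9.5e-05). Mme, which encodes neprilysin, an angiotensin-cleaving peptidase, differed by -2.19 and Agt by -1.70. On the cortex side were the peptidase gene Ctsa (1.27, adjusted p = 2e-05) and the receptor gene Agtr1a, while the receptor gene Agtr1b was not called (-0.18, adjusted p = 0.152). Of 20 prostanoid genes 4 were higher in cortex and 6 in outer medulla, and the cyclooxygenases went in opposite directions. Ptgs1, the constitutive form, read 6.53, 6.66 and 6.73 against 8.45, 8.68 and 8.04 (-1.75, SE 0.16, adjusted p = 0.00019), while Ptgs2 was higher in cortex. The prostaglandin D synthase gene Ptgds differed by 1.84 and the prostaglandin E receptor gene Ptger3 by -1.67.

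Of 30 genes of endothelin, nitric oxide, natriuretic peptide and adrenergic signalling 6 were higher in cortex and 7 in outer medulla. The natriuretic peptide clearance receptor gene Npr3 differed by 1.61, the soluble guanylate cyclase gene Gucy1a1 by 1.28 and the adrenergic receptor gene Adra1a by 1.13. Pde5a, which breaks down cyclic GMP, differed by -1.29 (SE 0.10, adjusted p = 9.9e-05), and the endothelial synthase gene Nos3 was not called (-0.29, adjusted p = 0.0776). Of 19 genes of phosphate, calcium and vitamin D handling 11 were higher in cortex and 2 in outer medulla, with a median of 0.80. Calb1, Trpv5, Slc8a1 and Slc34a3, which are in segment lists above, are counted here again.

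Of 42 transcription factor genes of the nephron 9 were higher in cortex and 19 in outer medulla, with a median of -0.27. Maf read 10.97, 10.92 and 10.92 in cortex against 8.65, 8.89 and 8.54 in outer medulla (2.24, SE 0.10, adjusted p = 8.1e-06). Sim2, a bHLH-PAS factor, read 6.20, 5.92 and 5.54 against 9.12, 9.00 and 8.70 (-3.05, SE 0.18, adjusted p = 2.9e-05). Ehf, an epithelial ETS factor, differed by -2.12 and Foxc1 by -1.62. Of 26 hypoxia response genes 4 were higher in each region, beside 20.8% of all genes called in either direction. Ndrg1 differed by 1.24 and Pfkfb4 by 1.08, while Egln3, the HIF prolyl hydroxylase, differed by -1.11. Vegfa read 10.33, 10.23 and 10.27 in cortex against 10.23, 10.30 and 10.07 in outer medulla and was not called (0.08, adjusted p = 0.596). Of 25 immediate early and stress genes 1 was higher in cortex and 3 in outer medulla, a share below the 20.8% of all genes. With a trended, robust fit the counts were 1 and 5. Egr1 read 6.71, 7.57 and 7.51 against 8.10, 8.40 and 8.41 (-1.04, adjusted p = 0.0142), and the heat shock gene Hspa8 was at 12.86 to 13.01 on all arrays.

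Of 22 fibroblast and pericyte genes 4 were higher in outer medulla, 0 were higher in cortex and 18 were not called, with Dcn, a matrix proteoglycan, at -0.77 (adjusted p = 0.00702) and Cspg4 at -0.49. Of 19 endothelial genes 9 were higher in outer medulla and 1 in cortex. The 9 became 4 with the methods' t-test after adjustment and 5 to 11 when 1 array was left out. The bright genes Emcn (-0.29, adjusted p = 0.062) and Flt1 (0.25, adjusted p = 0.202) were not called. Plvap, a protein of endothelial diaphragms, differed by -0.76, and Prox1, which marks lymphatic and ascending vasa recta endothelium but also tubule cells in mouse, by -2.48. Of 20 macrophage and dendritic cell genes 17 were not called, Cd74 was at 0.34 (adjusted p = 0.00957) and Csf1r at -0.50. Cd68 read 6.88 to 7.09 on all arrays. Of 15 lymphocyte genes 14 were not called, and the mean of that list was 5.63 to 5.77 in cortex and 5.50 to 5.63 in outer medulla. In the main fit the share called was close to the 20.8% of all genes in the fibroblast list and below it in the macrophage and lymphocyte lists. With a trended, robust fit 5 genes of the macrophage list were higher in cortex and 2 in outer medulla, and 3 and 0 of the lymphocyte list.

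Tissues that border the kidney were checked in the same way. Of 6 uroplakin and other urothelial genes 0 were called, with a list mean of 5.22 to 5.58 in cortex and 5.30 to 5.47 in outer medulla. Of 6 adrenal genes Mc2r alone was called (0.30, adjusted p = 0.0311), and the list mean was 4.89 to 5.30 against 5.02 to 5.13. Of 7 adipocyte genes 3 were higher in outer medulla, Cidec (-3.16), Fabp4 (-2.45) and Adipoq (-0.57), while Plin1, Cfd, Lep and Retn were not called. The list mean was 5.72 to 6.02 in cortex and 6.61 to 6.72 in outer medulla. Cidec, a lipid droplet protein, read 5.86, 6.65 and 5.37 in cortex against 9.20, 8.90 and 9.26 in outer medulla, with the cortex order of Hnmt. The hemoglobin genes Hba-a1 and Hbb-b1 differed by -0.65 and -0.54 (adjusted p = 0.0273 and 0.0324), each called in 2 of 6 fits that left out 1 array, and the 2 other red cell genes were not called. The part of fat or blood in any regional difference was not tested.

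The table also held 363 rows of miRNA genes, of which 30 were called (8.26%, against 20.8% of all genes), 19 higher in cortex and 11 in outer medulla. miRNAs are short RNAs that repress messages matching their seed, bases 2 to 8. These rows were dim, with a median percentile of 15.8 among genes, and the genes named here were chosen after their values were seen. An array row of a miRNA gene can also read the precursor or the transcript of an overlapping gene. The mature sequences (RefSeq) of 6 called miRNAs, not the 6 with the largest differences, are given with the seed in capitals, the first 3 from genes higher in cortex and the last 3 from genes higher in outer medulla.
rno-miR-218a-5p: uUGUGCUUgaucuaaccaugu
rno-miR-27b-3p: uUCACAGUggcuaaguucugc
rno-miR-192-5p: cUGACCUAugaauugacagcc
rno-miR-455-3p: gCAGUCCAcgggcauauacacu
rno-miR-18a-5p: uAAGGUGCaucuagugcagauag
rno-miR-19a-3p: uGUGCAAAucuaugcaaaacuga
Mir218-1 read 7.60, 7.41 and 7.50 in cortex against 6.55, 6.55 and 6.54 in outer medulla (0.95, SE 0.08, adjusted p = 0.00011). Mir218-2, which gives the same mature sequence with the seed UGUGCUU, differed by 0.69 (SE 0.18, adjusted p = 0.0317), a call kept in only 2 of 6 fits that left out 1 array. They lie in the spans of Slit2, which was higher in cortex (1.24, adjusted p = 0.00024), and of Slit3, which was higher in outer medulla (-0.48, adjusted p = 0.00374). Mir192, known for its abundance in the kidney, read 6.45, 6.29 and 6.33 against 5.73, 5.97 and 5.81 (0.52, SE 0.09, adjusted p = 0.00481), and Mir27b differed by 0.61. Mir455 read 7.91, 8.47 and 7.87 in cortex against 8.94, 9.10 and 9.18 in outer medulla (-0.99, SE 0.16, adjusted p = 0.00404). It lies in the span of Col27a1, which was not called (0.24, adjusted p = 0.11). Mir18a and Mir19a, neighbours in 1 cluster with different seeds, differed by -0.57 and -0.83.

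The congestive left kidneys gave a second reading of the same contrast, from 3 cortex and 3 outer medulla arrays of the same rats. The test of whether the regional difference was the same in both kidneys called 149 genes (0.82%), so that for most genes a change of regional pattern was not detected. Of the 149 genes 130 were also called in the control kidney, and in 115 of these the difference was smaller in the congestive kidney. Since they were called on the control values, this count is not independent of the choice. Calb1 differed by 4.15 in the congestive kidney and Hnmt by -4.03, and neither passed the test of a change (adjusted p = 0.866 and 0.836). The macula densa gene Ptgs2 was higher in cortex of the control kidney (1.39) and read -0.79 in the congestive kidney, and the change of -2.18 passed the test (SE 0.33, adjusted p = 0.015).

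**Figure D5:**
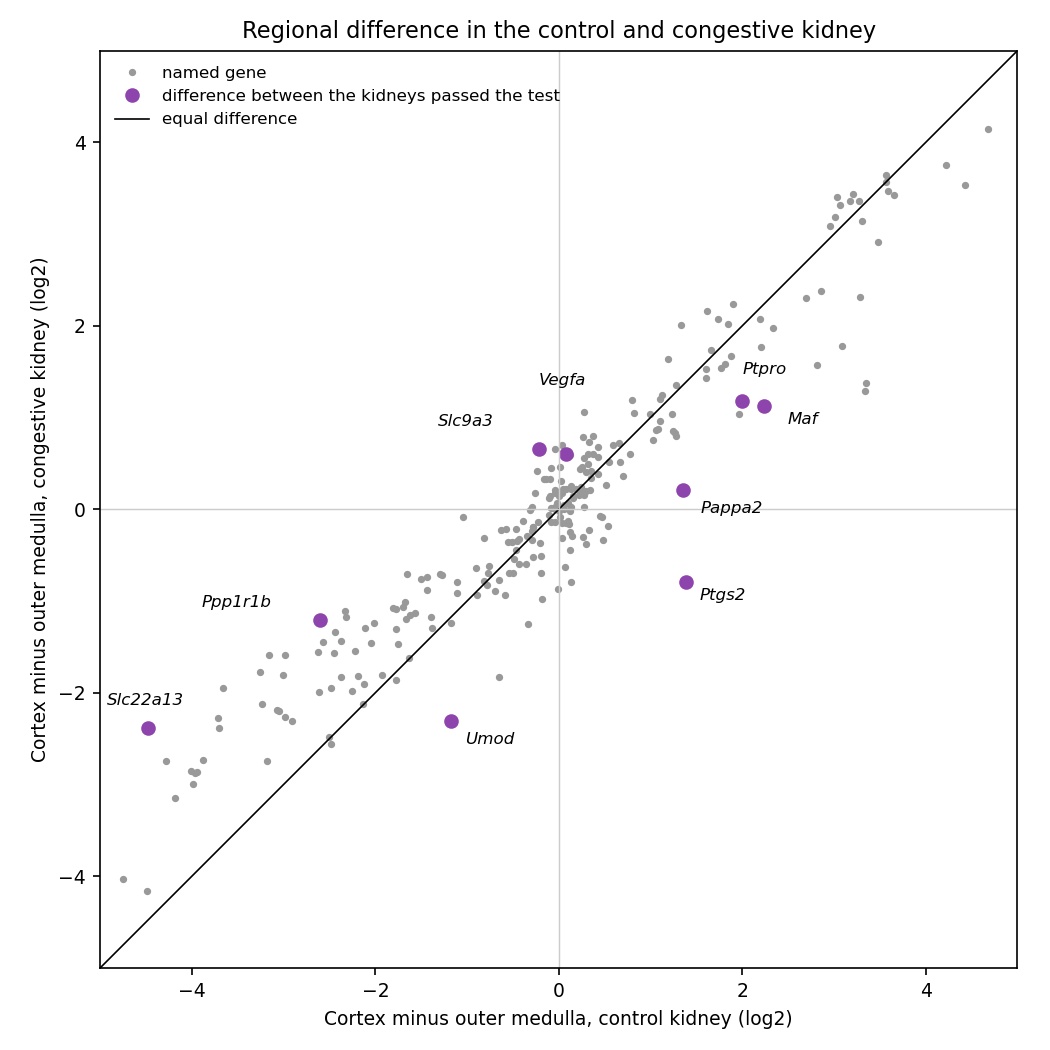
Cortex minus outer medulla in the congestive kidney (vertical, log2) against the same in the control kidney (horizontal, log2) for 258 named genes, with the 9 genes whose difference changed by the test in purple. Most genes lie near the line of equal difference or between it and the horizontal axis, and Ptgs2 lies at 1.39 and -0.79.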

How the data were processed

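RNA of the control right kidney was extracted with ISOGEN and hybridised to GeneChip Rat Gene 2.0 ST arrays, 1 value per transcript cluster. The authors normalized the values between arrays with Affymetrix Expression Console and deposited them on a log2 scale. The scale was read from the range of the values (1.23 to 13.5), while for the tool's version, the summarization and the genome build the sources used here give nothing. No raw intensities were used here, so signal over background is unknown, and the stated precision rests on the spread between few arrays.

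Of 36685 rows, 18511 had 1 gene symbol in the platform annotation, 575 had several and 17599 had none. The brightest row was kept for each symbol, which removed 345 rows and left 18166 genes without a filter on dim genes. Gene IDs of 18059 genes matched RefSeq. Groups came from the labels. For cortex replicate 3 the title number was used, as the source name gives 2. The 6 arrays were fitted in limma 3.58.1 (R 4.3.3, lmFit and eBayes, two-sided, 4 residual and 3.54 prior degrees of freedom, no block), with Benjamini-Hochberg adjustment over all genes. The change of the regional difference with congestion was fitted over 12 arrays. The fit of the 6 arrays was tested on simulated data, and the fit over 12 arrays was not.

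The 43 gene lists (740 of 854 genes measured) and the genes to describe were chosen with earlier results of these data known. Named are the 15 largest differences in each direction among called genes whose groups did not overlap, up to 4 called genes and up to 2 bright genes not called per list, and defining markers. List genes without a named row are not analysed here. Alternatives were other scalings, filters, models and row rules, the methods' t-test and leaving out each array.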

Additional observations from a re-analysis of the deposited data

Results flagged for a closer look

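For 9 of the named genes the regional difference was not the same in the congestive kidney, by the test of the change itself over 12 arrays (adjusted p under 0.05). Among genes higher in cortex of the control kidney the change was -2.18 for the cyclooxygenase gene Ptgs2 (from 1.39 to -0.79), -1.14 for the protease gene Pappa2 (from 1.35 to 0.21), -1.11 for the transcription factor gene Maf (from 2.24 to 1.13) and -0.81 for the podocyte gene Ptpro (from 2.0 to 1.18). Ptgs2 and Pappa2 are in the list of 7 macula densa genes, of which 3 passed this test. Ptges, Slc9a2, Nos1 and Mcub of that list did not pass it (adjusted p = 0.305, 0.891, 0.738 and 0.381). Pappa2 was dim, at percentile 32.5 among genes. Among genes higher in outer medulla of the control kidney it was 2.10 for the organic anion transporter gene Slc22a13 (from -4.48 to -2.38), 1.38 for the thick limb gene Ppp1r1b (from -2.60 to -1.21) and -1.14 for Umod, whose difference was larger in the congestive kidney (from -1.17 to -2.31). The genes Slc9a3 and Vegfa were not called in the control kidney. Their differences went from -0.22 to 0.66, a change of 0.88, and from 0.08 to 0.60, a change of 0.52 (adjusted p = 0.049). The smallest adjusted p among the 9 was 0.0045, for Maf. The congestive and control kidneys were of the same rats, and the fit has no term for this.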

How the results depend on the processing

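The counts of genes higher in cortex and in outer medulla (1792 and 1993) stayed within 1.5 times under every alternative run. They were 1992 and 2067 with quantile normalization, 2320 and 1726 with median centring, 1677 and 1958 among the 9083 brighter genes, 1983 and 2328 with a trended, robust fit, 1838 and 2067 in the fit over 12 arrays, 1233 and 1362 when adjusted over all rows, and 1377 and 1433 with the methods' t-test after adjustment (2640 and 2883 unadjusted). Leaving out 1 array gave 1300 to 1671 and 1374 to 1951 genes, and 2415 of the 3785 calls were kept in all 6 of these fits. Of the 167 named genes that were called, 31 lost the call under at least 1 alternative and 0 changed direction.

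The replicate numbers were tried as a replicate block, although the labels do not say that they pair kidneys. After removal of the group means, same-numbered arrays correlated across genes with r of 0.204, 0.05 and 0.195. Other-numbered arrays gave r from -0.264 to 0.106, with 0.054 for cortex replicate 2 and outer medulla replicate 3. The main fit has no block because the labels and methods state no pairing of the regions. These few correlations were not used to decide whether the numbers are pairs. The block gave 1783 and 1939 genes, with 3377 of the 3785 calls kept, and 1 named gene lost its call. For the change of the regional difference with congestion the block gave 206 genes in place of 149, and the cause was not tested. That count was 166 with quantile normalization, 185 among brighter genes and 219 with a trended, robust fit. Of the called genes 1000 lay below the median level of all genes, where differences on the log2 scale may be compressed.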
